A study of Mus musculus with 6 samples.

Results

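The genes described here are 42 markers of lymphocytes, neutrophils and leukocytes in general, read in mouse liver out of 54232 genes in the count table. They were chosen by symbol as genes known to mark a blood cell class: 3 pan-leukocyte genes, 20 genes of T cells and natural killer (NK) cells, 14 genes of B cells and plasma cells, and 5 neutrophil genes. The choice was made with earlier results of these data known. Counts of members called, set beside shares of all genes, are therefore descriptions and not tests of the set. Each of the 42 symbols named 1 row. Bulk RNA of whole liver was sequenced from 3 Nogo-/- mice (called knockout 1, 2 and 4 after the numbers in their titles) and 3 wild-type littermates (wild type 2, 4 and 11). All 6 mice were 8 weeks old and fed normal chow, and the title of the study names insulin signalling as its subject. Nogo is encoded by Rtn4, a reticulon of the endoplasmic reticulum. The labels do not say which part of Rtn4 was removed, in which cells it is absent, or whether blood was flushed from the livers.

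A liver holds lymphocytes and neutrophils in its sinusoids and portal tracts, and blood left in the vessels adds more. T cells recognise antigen through a receptor whose constant parts are encoded by Trac, Trbc1 and Trbc2 and which signals through the CD3 chains. B cells use membrane immunoglobulin, which signals through CD79, and plasma cells secrete it. Neutrophils carry large amounts of the calcium-binding proteins S100A8 and S100A9 and depend on the receptor for granulocyte colony-stimulating factor.

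The libraries held 17568223 to 20902369 counts, and 18653 to 19377 genes had at least 1 count. Rtn4 had 852, 991 and 1205 counts in wild type and 70, 153 and 78 in knockout, in the order of the library numbers, so the genotypes stood apart in every library. The share of mitochondrially encoded genes in all counts was 6.90%, 6.17% and 6.71% for wild type 2, 4 and 11. It was 28.6%, 19.7% and 11.8% for knockout 1, 2 and 4. The tissue carried its label: Alb, which encodes serum albumin, stood at 49072 to 70802 CPM, the unit of level used here, in which counts are put on a common scale by TMM, a method that allows for differences in library composition. The 42 markers together stood at only 49.8 ± 10.4 CPM in wild type and 138 ± 52.4 CPM in knockout (SD, n = 3 each). A gene with 3 counts in a library, taken as the floor, stood at 0.139 to 0.199 CPM.

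Members of every class rose in the knockouts, all from low levels. In the edgeR quasi-likelihood test, 18 of the 42 rose and 0 fell at a Benjamini-Hochberg adjusted p under 0.05 over all genes tested. Among all 13304 tested genes 8.76% rose and 8.29% fell. The 18 were Coro1a and Ltb; Trac, Trbc1, Trbc2, Ccl5, Nkg7 and Il2rb; Cd79a, Ms4a1, Pax5, Cd22, Fcer2a, Ighd and Igkc; and S100a8, S100a9 and Csf3r. In bulk tissue, a difference in the number of cells of a class and a difference in RNA per cell cannot be told apart.

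The low-count filter decided which members could be tested. Of the 42, 29 passed it: 18 had enough counts in both genotypes, 9 in the knockout libraries alone, 1 in the wild-type libraries alone, and 1 in a mixture of both. The 9 that passed through the knockout libraries alone could hardly have entered the test without being higher there, so the share of tested members called is not read as a result. Of the 18 members that rose, 7 are among those 9. A fit of all 23915 genes with at least 1 count gave a value for every member. In it the log2 fold change, knockout over wild type, was above 0 for 42 of 42, with a median of 1.39 against 0.04 over all genes, and 24 of the 42 were called higher, where 6.26% of all genes were. For 30 of the 42, the CPM of all 3 knockout libraries lay above all 3 wild-type libraries. The background for that is 19.7% of the tested genes and 14.8% of all genes with a count.

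**Figure D1:**
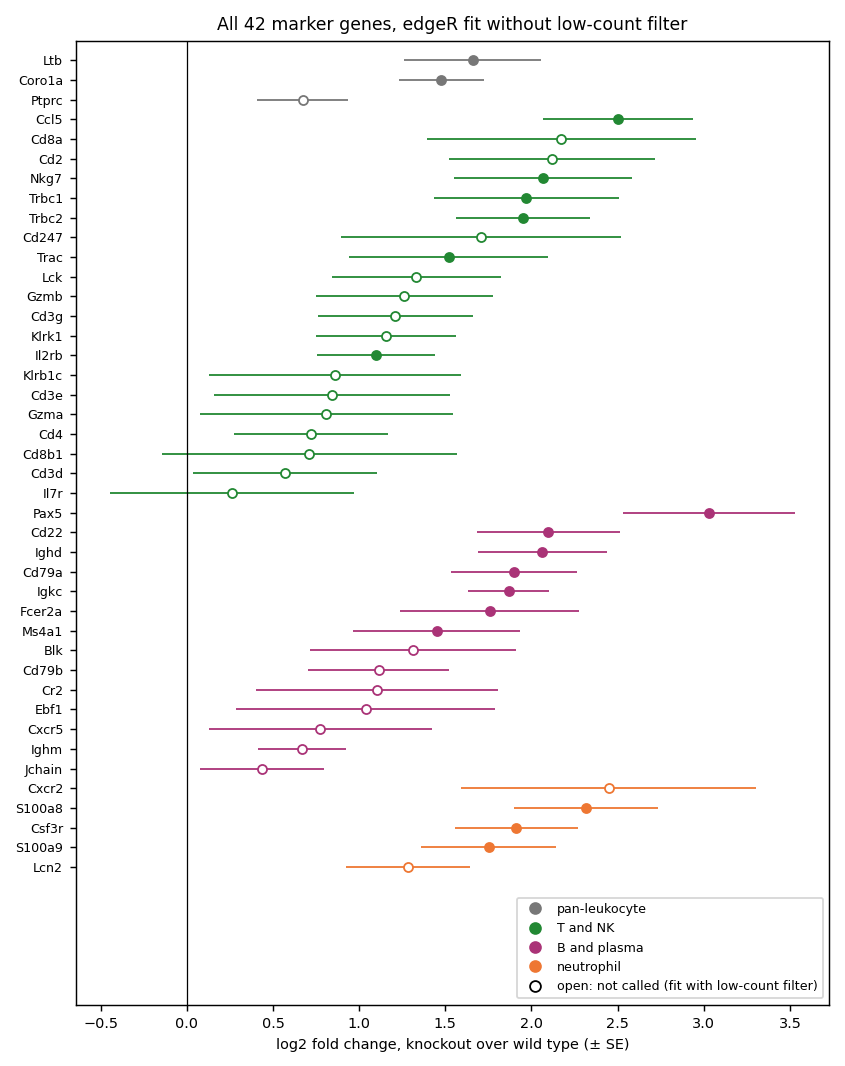
Log2 fold change of knockout over wild type with its standard error for each of the 42 members, from the edgeR fit without the low-count filter, ordered within class. All 42 points lie to the right of 0; filled points are the 18 members called in the filtered fit.

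The count of 18 depended on single libraries and was lost when the mitochondrial share was added to the fit. It was 10 without wild type 2, 8 without wild type 4 and 11 without knockout 2. The share of all tested genes called higher fell as well, to 2.85%, 2.18% and 4.15% in these fits, from 8.76%. With the mitochondrial share of each library as a covariate edgeR called 0 members, and 0 of all 13304 genes. Every knockout library had a higher share than every wild type, so that fit cannot tell the share apart from the genotype. In that fit the fold change of all 29 tested members stayed above 0, with a median of 1.27 against 0.01 over all genes. Of the 29, 10 had an unadjusted p under 0.05, a count for which no share of all genes was computed. Several fold changes were smaller there: 0.66 for Coro1a, 0.98 for Igkc and 1.34 for Pax5, against 1.53, 1.92 and 3.08 without the covariate. Knockout 4 had the smallest mitochondrial share of the knockouts. Set alone against the 3 wild types, it gave positive fold changes for 30 of 32 tested members. Their median was 1.06, against −0.03 over all genes. That fit holds a single knockout library, so its fold changes carry no measure of the spread between knockouts.

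The knockout libraries differed among themselves in the markers. Knockout 2 had the highest CPM of the 3 knockouts in 32 of the 42 members, while it was highest in 29.9% of all tested genes. Knockout 4 was the lowest of the 3 in 29 of the 42, a count for which no share of all genes was computed. Each knockout library by itself lay above all wild types in most members: knockout 1 in 36, knockout 2 in 41 and knockout 4 in 35. Of all genes with a count, 35.9%, 36.0% and 31.3% lay above the wild types in these libraries.

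Since single members had few counts, the counts of each class were summed. The 3 pan-leukocyte genes summed to 226, 198 and 352 counts in wild type 2, 4 and 11 and to 487, 751 and 276 in knockout 1, 2 and 4. In CPM this was 12.5 ± 3.29 against 29.7 ± 12.1 (SD, n = 3 each), a ratio of 2.37. Wild type 11 at 16.3 CPM came close to knockout 4 at 16.6 CPM, and these sums barely separate the genotypes. The 20 T and NK genes summed to 208, 177 and 289 counts in wild type and 398, 776 and 357 in knockout, or 10.9 ± 2.18 against 29.8 ± 10.5 CPM, a ratio of 2.73. The 14 B and plasma cell genes summed to 375, 403 and 570 counts in wild type and 1003, 1570 and 625 in knockout, or 21.9 ± 4.35 against 62.8 ± 23.6 CPM, a ratio of 2.86. The 5 neutrophil genes summed to 73, 86 and 114 counts in wild type and 237, 432 and 151 in knockout, or 4.45 ± 0.92 against 16.0 ± 7.06 CPM, a ratio of 3.59. For these 3 classes the lowest knockout library was clear of the highest wild type. Without its most abundant member each sum kept its direction: the ratio was 1.90 without Coro1a, 2.84 without Il2rb, 2.42 without Igkc and 3.47 without Csf3r.

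**Figure D2:**
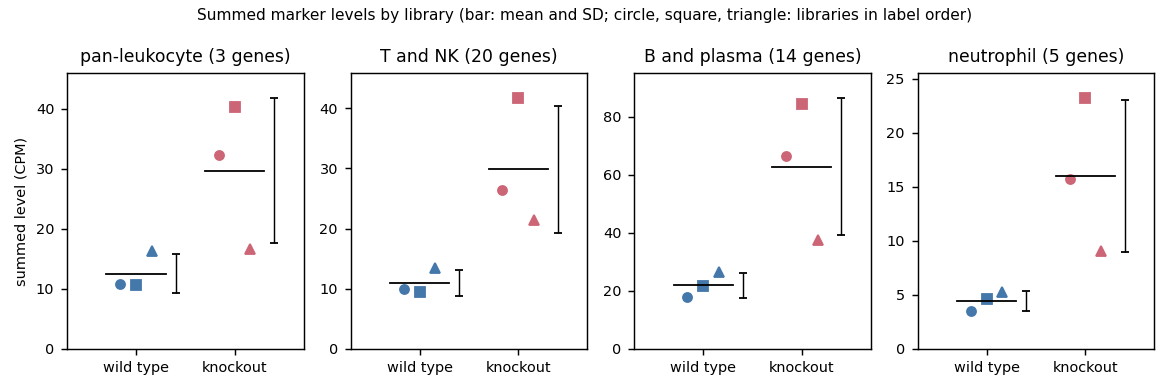
Summed level in CPM of the members of each class, 1 point per library, with the mean as a line and the SD as a bar beside it; circle, square and triangle are wild type 2, 4, 11 and knockout 1, 2, 4. Knockout 2 is highest and knockout 4 lowest of the knockouts in each class, and in the pan-leukocyte panel knockout 4 (16.6 CPM) is level with wild type 11 (16.3 CPM).

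Of the pan-leukocyte genes, Coro1a and Ltb rose and Ptprc was not called. Coro1a encodes coronin 1A, an actin regulator of blood cells, and lies on chromosome 7 from 126699773 to 126707787 (minus strand, mm10). It had 99, 93 and 176 counts in wild type and 284, 447 and 146 in knockout. Its level was 5.95 ± 1.93 against 17.2 ± 7.74 CPM, a log2 fold change of 1.53 ± 0.36 (SE; edgeR adjusted p = 0.0190). Knockout 4, at 8.78 CPM, was just above wild type 11, at 8.17 CPM, and Coro1a was called in only 2 of the 6 fits that left out a library. Ltb encodes lymphotoxin beta, a membrane cytokine of lymphocytes that organises lymphoid tissue. It had 23, 15 and 22 counts in wild type and 55, 70 and 37 in knockout, or 0.971 ± 0.15 against 3.21 ± 0.85 CPM (1.71 ± 0.35, edgeR adjusted p = 0.0122). All 3 knockouts were at least at 2.23 CPM and no wild type exceeded 1.09 CPM. Ptprc encodes CD45, the phosphatase on all nucleated blood cells, Kupffer cells included. Its counts were 104, 90 and 154 against 148, 234 and 93, with a log2 fold change of 0.73 ± 0.31 (edgeR adjusted p = 0.124). Knockout 4, at 5.60 CPM, lay inside the wild-type range of 4.80 to 7.15 CPM.

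Among the 20 T and NK genes, 6 rose, another 6 were tested and not called, and 8 were too low for the test. In the fit of all genes 9 of the 20 were called higher, where 6.26% of all genes were, and 20 of 20 were above 0. In 13 of the 20 all knockouts lay above all wild types, as in 14.8% of all genes with a count. Of the 6, Trac, Trbc1, Ccl5 and Nkg7 had passed the filter through the knockout libraries alone. The count of 6 in the filtered fit became 2 without wild type 2, 1 without wild type 4 and 3 without knockout 2. Of all tested genes, 2.85%, 2.18% and 4.15% were called higher in these fits, against 8.76% with all libraries.

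All 3 constant genes of the alpha-beta T cell receptor rose. Trac, the alpha chain constant gene, had 9, 5 and 8 counts in wild type and 13, 28 and 14 in knockout (0.355 ± 0.08 against 1.07 ± 0.38 CPM; 1.57 ± 0.46, edgeR adjusted p = 0.0415). Trbc2, one of the beta chain constant genes, had 20, 11 and 27 counts in wild type and 66, 89 and 36 in knockout (0.930 ± 0.33 against 3.77 ± 1.41 CPM; 2.004 ± 0.41, edgeR adjusted p = 0.0125). Trbc1, the other, had 8, 6 and 8 counts in wild type and 27, 28 and 19 in knockout (0.357 ± 0.03 against 1.48 ± 0.32 CPM; 2.02 ± 0.41, edgeR adjusted p = 0.0122). No knockout library overlapped a wild type in any of these. Trac was called in only 1 of the 6 fits that left out a library, Trbc1 in 4 and Trbc2 in 5.

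The values of the beta constant genes are uncertain as single genes, because their sequences are nearly the same and reads can fall to either. The first exons, 375 bases each, are 99.7% identical and differ at 1 base, the substitution C260A (Trbc1 base, position from the start of the exon, Trbc2 base). The 80 bases around it are shown in GENCODE M21 sequence, plus strand, mm10, at chr6:41538437-41538516 for Trbc1 and chr6:41546949-41547028 for Trbc2, with the differing base in capitals:
Trbc1: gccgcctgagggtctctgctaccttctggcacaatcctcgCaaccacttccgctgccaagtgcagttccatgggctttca
Trbc2: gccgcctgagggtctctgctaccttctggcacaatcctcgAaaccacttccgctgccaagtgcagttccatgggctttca
Of all 50-base words of their exons, 40.5% in Trbc1 and 44.0% in Trbc2 also occur in other genes. Trbc1 made up 28.9 ± 6.23% of the counts of both in wild type and 29.2 ± 5.31% in knockout (SD, n = 3 each), a difference of 0.26 percentage points (exact permutation test, two-sided, p = 0.9; Benjamini-Hochberg over 5 shares, 0.9).

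Of the CD3 chains, which carry the signal of that receptor, Cd3d, Cd3e and Cd3g had smaller fold changes than the receptor genes. Cd3g had 17, 10 and 22 counts in wild type and 25, 55 and 18 in knockout, with a log2 fold change of 1.26 ± 0.46 (edgeR adjusted p = 0.0820). Knockout 4, at 1.08 CPM, was only just above wild type 11, at 1.02 CPM. Cd3d had 11, 13 and 14 counts against 10, 23 and 16 (0.62 ± 0.42, edgeR adjusted p = 0.322), and its genotypes overlapped. Cd3e had 5, 3 and 11 counts against 8, 12 and 9 and was not tested, with a log2 fold change of 0.84 in the fit of all genes. Cd247, the zeta chain, had 7, 1 and 1 counts against 4, 11 and 11 and was not tested either. In the fit of all genes, where Trac was at 1.52, Cd247 was at 1.71 ± 0.81 and was not called. Its value is uncertain, since 60.3% of its exon bases overlap Gm16565 or Pou2f1, the latter on the opposite strand, and whether strand was counted is not given in the sources used here. Differences between these chains and the receptor genes were not tested.

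Coreceptors and adhesion molecules of T cells were mostly near the floor. Cd4, the helper coreceptor, had 11, 7 and 42 counts in wild type and 24, 39 and 20 in knockout (0.77 ± 0.57, edgeR adjusted p = 0.375). Wild type 11 alone accounted for most of the wild-type counts and lay above knockout 1 and 4 in CPM. Cd8a, of the cytotoxic coreceptor, had 2, 3 and 3 counts against 5, 20 and 8, and Cd8b1, its partner, had 3, 2 and 7 against 5, 10 and 2. Neither was tested with the filter. In the fit of all genes Cd8a was called (2.17 ± 0.78, edgeR adjusted p = 0.0418) and Cd8b1 was not (0.71 ± 0.86). Cd2, an adhesion receptor of T and NK cells, had 6, 4 and 6 counts against 19, 33 and 9 and was called in the fit of all genes (2.12 ± 0.60, edgeR adjusted p = 0.00494). Lck, the kinase that starts receptor signalling, had 8, 7 and 21 counts against 15, 37 and 26 (1.38 ± 0.49, edgeR adjusted p = 0.0757), and knockout 1 at 0.993 CPM stood next to wild type 11 at 0.975 CPM. Il7r, the receptor for a survival cytokine of naive lymphocytes, had 11, 5 and 6 counts against 9, 4 and 9, the smallest fold change of the 42 in the fit of all genes (0.26 ± 0.71).

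Effector genes of cytotoxic T and NK cells held the class's largest fold change in the filtered fit. Ccl5, a chemokine stored by memory and cytotoxic lymphocytes, lies on chromosome 11 from 83525778 to 83530518 (minus strand, mm10). It had 10, 12 and 11 counts in wild type and 48, 85 and 31 in knockout, or 0.542 ± 0.09 against 3.20 ± 1.35 CPM (2.56 ± 0.42, edgeR adjusted p = 0.00693). The wild types were within 0.475 to 0.640 CPM while the lowest knockout stood at 1.87 CPM, and Ccl5 was the 1 T and NK gene called in all 6 fits that left out a library. Nkg7, a protein of cytotoxic granules, had 3, 11 and 9 counts against 18, 46 and 22 (2.12 ± 0.53, edgeR adjusted p = 0.0247), and was called in only 2 of the 6 fits that left out a library. Gzmb and Gzma encode granzymes, the proteases that cytotoxic cells inject into targets. Gzmb had 4, 13 and 15 counts against 9, 48 and 12 (1.32 ± 0.66, edgeR adjusted p = 0.183), and of the knockouts only knockout 2, at 2.58 CPM, stood far from the highest wild type at 0.697 CPM. Gzma had 7, 6 and 3 counts against 6, 17 and 2, was not tested with the filter, and overlapped.

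Receptors of NK cells and activated T cells completed the class. Il2rb, the beta chain of the receptors for interleukins 2 and 15, had 38, 35 and 41 counts in wild type and 55, 99 and 57 in knockout, or 1.86 ± 0.05 against 4.13 ± 1.03 CPM (1.15 ± 0.29, edgeR adjusted p = 0.0258). It was the most abundant member of the class in CPM, with wild types between 1.80 and 1.90 CPM and knockouts from 3.43 CPM upward, yet it was called in only 1 of the 6 fits that left out a library. Klrk1, which encodes the activating receptor NKG2D, had 24, 17 and 28 counts against 24, 84 and 27 (1.21 ± 0.46, edgeR adjusted p = 0.0933), and knockout 2 held most of the difference. Klrb1c, which encodes NK1.1, had 4, 6 and 6 counts against 8, 8 and 9 and was too low for the test. It shares 17.0% of its 50-base words with other genes and 13.9% of its exon bases overlap Gm44511.

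Of the 14 B and plasma cell genes, 7 rose, 3 were tested and not called, and 4 were too low for the test. In the fit of all genes 8 of the 14 were called higher, where 6.26% of all genes were, and 14 of 14 were above 0. In 10 of the 14 all knockouts lay above all wild types, as in 14.8% of all genes with a count. Of the 7, the 5 called in all 6 fits that left out a library were Cd79a, Pax5, Cd22, Ighd and Igkc. The other two, Ms4a1 and Fcer2a, were called in 1 each. Pax5, Fcer2a and Ighd had passed the filter through the knockout libraries alone.

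Signalling genes of the B cell receptor were read first. Cd79a, one of its signalling chains, had 17, 21 and 31 counts in wild type and 69, 97 and 55 in knockout, or 1.12 ± 0.32 against 4.36 ± 0.97 CPM (1.95 ± 0.34, edgeR adjusted p = 0.00793). Knockout 4, the lowest, stood at 3.31 CPM and wild type 11, the highest, at 1.44 CPM. Cd79b, the partner chain, had 26, 22 and 19 counts against 32, 70 and 25 (1.17 ± 0.41, edgeR adjusted p = 0.0719). Its knockouts lay above its wild types as well, but knockout 4 at 1.50 CPM was near wild type 2 at 1.23 CPM. Cd22 encodes a sialic acid-binding receptor that dampens this signal. It had 14, 13 and 17 counts against 54, 80 and 29, or 0.716 ± 0.07 against 3.21 ± 1.32 CPM (2.15 ± 0.41, edgeR adjusted p = 0.0102), with wild types packed between 0.665 and 0.790 CPM. On the opposite strand Gm29439 overlaps 9.5% of its exon bases.

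Transcription factors of the lineage differed in how far they could be read. Pax5, the factor that commits cells to the B lineage, lies on chromosome 4 from 44524757 to 44710487 (minus strand, mm10). It had 7, 2 and 9 counts in wild type and 55, 57 and 14 in knockout, or 0.286 ± 0.16 against 2.51 ± 1.48 CPM. Its log2 fold change of 3.08 ± 0.63 (edgeR adjusted p = 0.0122) was the largest of the 42 in both fits. Knockout 4 stood at 0.842 CPM, well under knockout 1 at 3.64 CPM and knockout 2 at 3.06 CPM, so the size of the change rests mainly on those libraries. Genes on the opposite strand overlap 8.6% of its exon bases. Ebf1, another early B lineage factor, had 3, 5 and 6 counts against 10, 12 and 3, and Blk, a B cell kinase, had 4, 7 and 11 against 18, 21 and 8. Both were too low for the test and both overlapped between genotypes through knockout 4.

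Surface markers of mature B cells were higher too. Ms4a1, which encodes CD20, had 11, 12 and 12 counts in wild type and 25, 28 and 29 in knockout, or 0.573 ± 0.06 against 1.63 ± 0.12 CPM (1.50 ± 0.37, edgeR adjusted p = 0.0224). Its 3 knockout libraries lay within 1.50 to 1.74 CPM, and here knockout 4 was the highest. Fcer2a encodes CD23, the low-affinity receptor for immunoglobulin E on mature B cells. It had 7, 9 and 10 counts against 23, 40 and 14 (1.81 ± 0.47, edgeR adjusted p = 0.0268), with no overlap. Cr2, the complement receptor CD21, had 5, 6 and 5 counts against 10, 14 and 6, and Cxcr5, the receptor that guides B cells to follicles, had 11, 3 and 8 against 3, 21 and 9. Neither was tested with the filter. Cr2 did not overlap between genotypes (0.361 CPM in knockout 4 against 0.320 in wild type 4), and Cxcr5 did.

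Immunoglobulin genes made up most of the class's counts. Igkc, the kappa light chain constant gene, lies on chromosome 6 from 70726435 to 70726966 (plus strand, mm10) and was the most abundant of the 42 members, also per kilobase of exon, at 13.2 CPM per kilobase in wild type and 50.01 in knockout. It had 110, 130 and 191 counts in wild type and 426, 736 and 201 in knockout, or 7.01 ± 1.82 against 26.6 ± 13.8 CPM (1.92 ± 0.38, edgeR adjusted p = 0.0114). In knockout 2 and 1 it reached 39.5 and 28.2 CPM, while knockout 4 at 12.1 CPM was nearer to wild type 11 at 8.87 CPM. Ighd, the constant gene of immunoglobulin D, had 21, 9 and 32 counts against 78, 80 and 59, or 0.988 ± 0.50 against 4.34 ± 0.81 CPM (2.11 ± 0.40, edgeR adjusted p = 0.00993). Ighm, the constant gene of immunoglobulin M, had 110, 115 and 172 counts against 161, 239 and 139, or 6.45 ± 1.41 against 10.6 ± 2.24 CPM. With 0.72 ± 0.24 it was not called (edgeR adjusted p = 0.0658), and knockout 4 at 8.36 CPM was close to wild type 11 at 7.99 CPM. Jchain joins the units of secreted immunoglobulin M and A and marks plasma cells. It had 29, 49 and 47 counts against 39, 75 and 34 (0.49 ± 0.37, edgeR adjusted p = 0.372), and its genotypes overlapped. Without the 3 immunoglobulin genes and Jchain, the remaining 10 B cell genes summed to 105, 100 and 128 counts in wild type and 299, 440 and 192 in knockout, a ratio of 3.38 in CPM.

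**Figure D3:**
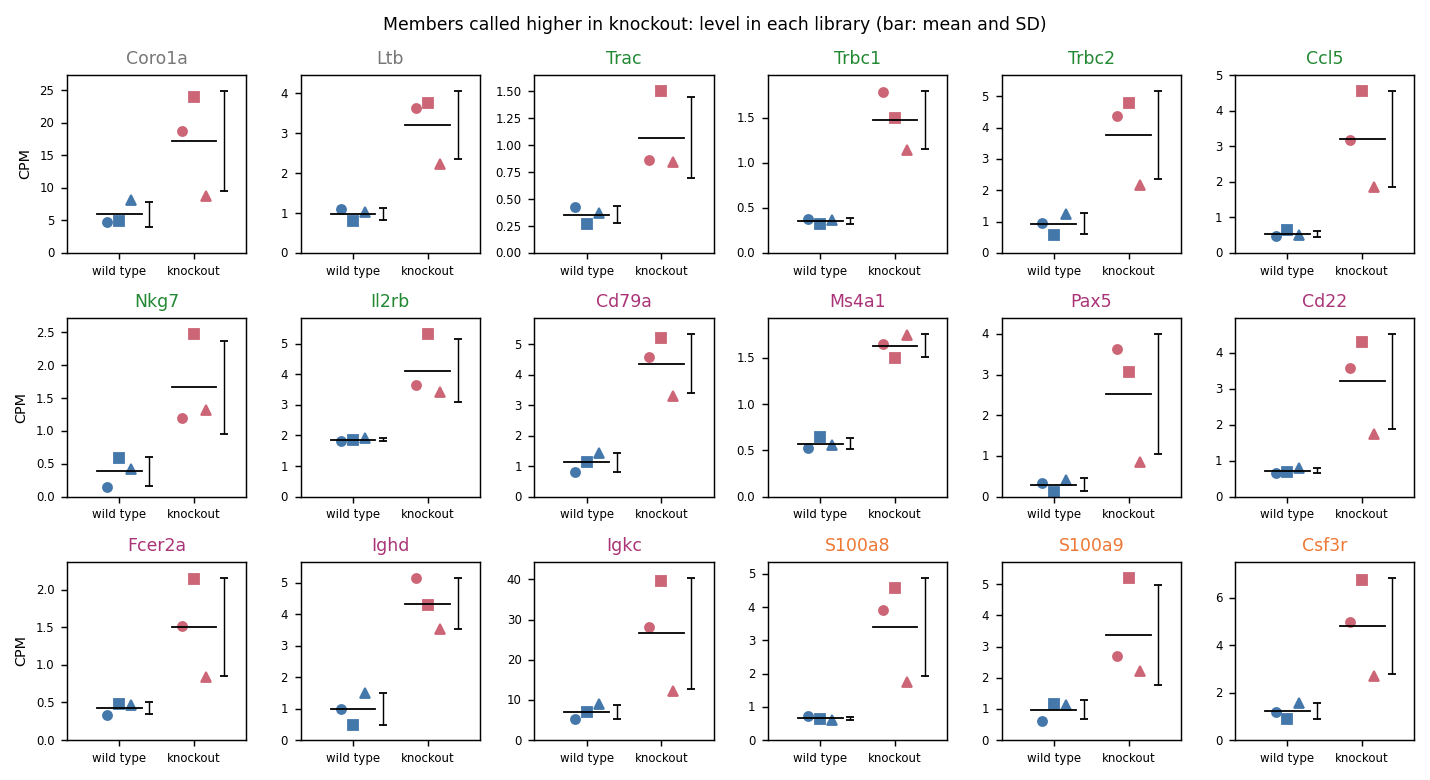
Level in CPM of each of the 18 members called higher, 1 point per library, with the mean as a line and the SD as a bar beside it; circle, square and triangle are wild type 2, 4, 11 and knockout 1, 2, 4. In every panel the 3 knockouts lie above the 3 wild types, with knockout 4 usually the nearest to them.

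All 5 neutrophil genes had knockouts above wild types in every library, and 3 of the 5 rose. In the fit of all genes 5 of 5 were called higher, where 6.26% of all genes were. The background for knockouts above wild types in every library is 14.8% of all genes with a count. S100a8 and S100a9 encode the subunits of calprotectin and lie near each other on chromosome 3, S100a8 from 90668978 to 90670035 on the plus strand and S100a9 from 90692632 to 90695721 on the minus strand (mm10). S100a8 had 15, 12 and 13 counts in wild type and 59, 85 and 29 in knockout, or 0.652 ± 0.06 against 3.41 ± 1.48 CPM (2.37 ± 0.42, edgeR adjusted p = 0.00831). S100a9 had 13, 22 and 24 counts against 41, 97 and 37, or 0.968 ± 0.31 against 3.38 ± 1.60 CPM (1.81 ± 0.42, edgeR adjusted p = 0.0195). The lowest knockout of each, knockout 4, was at 1.74 and 2.23 CPM, above the highest wild types at 0.712 and 1.17 CPM. Csf3r, the receptor for granulocyte colony-stimulating factor, had 25, 17 and 34 counts against 75, 126 and 45, or 1.22 ± 0.34 against 4.81 ± 2.03 CPM (1.97 ± 0.39, edgeR adjusted p = 0.0118). It shares 10.5% of its 50-base words with other genes. S100a8 and Csf3r were called in all 6 fits that left out a library and S100a9 in 3.

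The remaining neutrophil genes were less certain. Lcn2 encodes lipocalin 2, a protein of neutrophil granules that hepatocytes also secrete in inflammation. It had 18, 35 and 39 counts in wild type and 45, 119 and 34 in knockout (1.34 ± 0.47, edgeR adjusted p = 0.0714), and knockout 4 at 2.05 CPM was near wild type 4 at 1.87 CPM. Cxcr2, a chemokine receptor by which neutrophils leave the blood, had 2, 0 and 4 counts against 17, 5 and 6. It was too low for the filter and was called in the fit of all genes (2.45 ± 0.86, edgeR adjusted p = 0.0341), with most of its counts in knockout 1.

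Promoters were looked at because several members of each class rose. RefSeq windows (GRCm38.p6) of 300 bases, from 250 before to 50 after a start, existed for 27 of the 42 members, as 33 windows. They were searched on both strands for 4 motifs: the octamer ATGCAAAT of Oct factors, the EBF1 core CCCNNGGG, the PU.1 core GAGGAAGT and the RUNX core TGTGGTTT. No member window held more than 1 of them, so no matches overlapped. The octamer was in no member window and in 1.74% of all 32851 promoter windows. The EBF1 core was in 1 of 10 windows of B cell genes (Cd22), 2 of 5 of neutrophil genes (Csf3r and Cxcr2), 1 of 5 of pan-leukocyte genes (Coro1a), none of 13 of T and NK genes, and 13.7% of all windows. The PU.1 core was in 1 window, that of S100a8, and in 3.2% of all windows. The RUNX core was in 2 of 13 windows of T and NK genes (Gzma and Il7r) and in 1.78% of all windows. With so few windows these are descriptions of letters, not of bound sites. For 3 of the 4 called members with a match, Cd22, S100a8 and Coro1a, 60 bases upstream of the start are shown in the direction of the gene, with the match in capitals (in S100a8 it is the PU.1 core read on the other strand). They lie at chr7:30879043-30879102 (minus strand) for Cd22, chr3:90668873-90668932 (plus strand) for S100a8 and chr7:126704318-126704377 (minus strand) for Coro1a:
Cd22: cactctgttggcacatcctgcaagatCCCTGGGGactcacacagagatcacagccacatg
S100a8: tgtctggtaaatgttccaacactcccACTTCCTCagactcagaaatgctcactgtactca
Coro1a: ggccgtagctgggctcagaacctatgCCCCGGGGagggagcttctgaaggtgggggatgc

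Shares between members of 1 library do not depend on how libraries are scaled, and 5 were compared. With 3 libraries a genotype the smallest p an exact permutation test can give is 0.1, so none could pass 0.05. Ighd as a share of Ighd plus Ighm was 16.0% in wild type 2 (21 of 131 counts), 7.26% in wild type 4 (9 of 124) and 15.7% in wild type 11 (32 of 204). In knockout 1, 2 and 4 it was 32.6% (78 of 239), 25.1% (80 of 319) and 29.8% (59 of 198). The means were 13.0 ± 4.97% and 29.2 ± 3.82% (SD, n = 3 each), with no overlap (exact permutation test, two-sided, p = 0.1; 0.25 adjusted over 5 shares). The 95% Clopper-Pearson intervals, which cover counting error only, reached at most 23.5% in wild type and began at 20.4% in knockout, so those of single libraries could overlap. Immunoglobulins M and D are spliced from the same transcripts in mature naive B cells, whereas plasma cells that secrete immunoglobulin M make little D.

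Cd79a plus Cd79b, as a share of these and the 3 CD3 genes Cd3d, Cd3e and Cd3g, set counts of B cell genes against counts of CD3 genes. It was 56.6%, 62.3% and 51.5% in wild type 2, 4 and 11. For knockout 1, 2 and 4 it was 70.1%, 65.0% and 65.0%. The means were 56.8 ± 5.39% and 66.7 ± 2.96% (SD, n = 3 each), with no overlap of libraries (exact permutation test, two-sided, p = 0.1; 0.25 adjusted over 5 shares). The counting intervals of single libraries did overlap. This share depends on the T cell genes chosen: Cd3d and Cd3g had log2 fold changes of 0.62 and 1.26. Trac, Trbc1 and Trbc2, which it leaves out, had 1.57, 2.02 and 2.004. It therefore does not show that B cell genes rose more than T cell genes. Cd8a as a share of Cd4 plus Cd8a was 17.4 ± 11.8% in wild type and 26.6 ± 8.51% in knockout, on 10 to 59 counts a library (n = 3 each, exact permutation test, two-sided, p = 0.3; 0.375 adjusted). S100a8 as a share of S100a8 plus S100a9 was 41.3 ± 10.6% and 49.9 ± 8.02% (n = 3 each, exact permutation test, two-sided, p = 0.3; 0.375 adjusted). Both overlapped between genotypes, and at these counts a difference was not detectable.

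**Figure D4:**
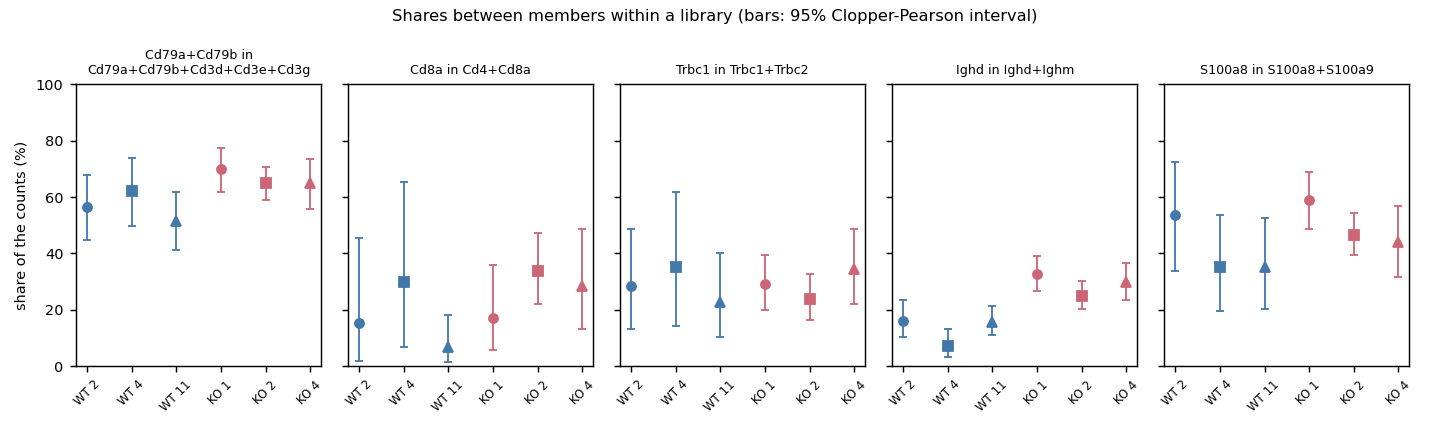
Share in percent that 1 member or group of members takes of the counts of a set, by library, with 95% Clopper-Pearson intervals; blue is wild type and red knockout. Ighd within Ighd plus Ighm separates the genotypes (7.26 to 16.0% against 25.1 to 32.6%), while the shares of Cd8a, Trbc1 and S100a8 overlap.

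Other genes of the same cell classes were read from lists that hold no member. For the counts below, 8.76% of all tested genes rose and 8.29% fell in the filtered fit. Of 32 other T and NK genes counted, 11 were tested and 3 rose: Ctsw, a protease of cytotoxic cells (2.33 ± 0.49), Cxcr3, a chemokine receptor of effector T cells (1.60 ± 0.44), and Thy1, a surface protein of T cells (1.18 ± 0.32). Zap70, the kinase recruited by the CD3 chains, had the highest level of them and was not called (0.49 ± 0.24, edgeR adjusted p = 0.180). Several defining T cell genes were at or near 0: Cd28, the costimulatory receptor, had 0 counts in all 6 libraries, and Foxp3, the factor of regulatory T cells, had at most 3. Without the low-count filter 26 of the 31 with a value were above 0, with a median of 0.81. Of the 31, 2 were called higher, near the 6.26% of all genes called higher in that fit. The list summed to 22.1 to 26.2 CPM in wild type and 35.2 to 40.9 CPM in knockout.

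Of 28 other B and plasma cell genes 19 were tested and 4 rose. Among them were Igha, the constant gene of immunoglobulin A (1.50 ± 0.37), Pou2f2, the lymphoid octamer factor (1.48 ± 0.41), and Iglc2, a lambda light chain gene (1.59 ± 0.45). Cd74, the invariant chain of antigen presentation, was far more abundant and not called (0.35 ± 0.26, edgeR adjusted p = 0.363). Without that filter 25 of 28 were above 0, with a median of 0.99, and 7 were called higher, where 6.26% of all genes were. The sum of this list overlapped between genotypes, at 396 to 557 CPM against 455 to 573 CPM, but Txndc5 and Sdc1, genes not limited to plasma cells, made up most of it.

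Of 25 other neutrophil genes only 4 were tested, and 1 rose: Hdc, the enzyme that makes histamine (1.99 ± 0.41, edgeR adjusted p = 0.0127), which mast cells and basophils also express. Ly6g, the surface marker by which mouse neutrophils are usually identified, had 0, 0 and 0 counts in wild type and 0, 0 and 1 in knockout. Trem1 and Trem3 had 0 counts in every library. Retnlg and Mmp9, secreted by neutrophils, had 2, 1 and 2 and 7, 6 and 4 counts in wild type against 14, 12 and 1 and 8, 36 and 20 in knockout. Both were called higher in the fit of all genes, Retnlg at 2.59 ± 0.90 (edgeR adjusted p = 0.0316) and Mmp9 at 2.07 ± 0.58 (edgeR adjusted p = 0.00506). With Hdc these were the 3 of 23 genes with a value called higher in that fit, where 6.26% of all genes were. In it 19 of the 23 were above 0 and the median was 1.93. Granule genes of immature neutrophils varied: Ltf and Mpo had 0 to 1 counts outside knockout 1, which had 14 and 7, while Prtn3 had 6, 17 and 40 counts in wild type against 24, 16 and 11 (0.01 ± 0.61). The sum of this list went the other way, 323 to 375 CPM in wild type against 165 to 299 CPM in knockout, almost wholly through Wfdc21, which stood at 310 to 360 CPM against 109 to 278 CPM and was not called with the filter (edgeR adjusted p = 0.0562). Without it Wfdc21 was lower (−1.04 ± 0.22, edgeR adjusted p = 8.03e-05).

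Pan-leukocyte genes outside the members were mostly not called. All 22 were tested and 3 rose: Cd52, a surface glycoprotein of lymphocytes (1.66 ± 0.35), Lsp1, an actin-binding protein of leukocytes (1.38 ± 0.33), and Rac2, the leukocyte Rac GTPase (1.17 ± 0.31). The median log2 fold change of the list was 0.52, against 1.53 over the 3 pan-leukocyte members. Ptpn6, the most abundant, was at 0.15 ± 0.20. The sum was 77.6 to 108 CPM in wild type and 116, 177 and 82.7 CPM in knockout 1, 2 and 4, so knockout 4 lay inside the wild-type range.

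Other cells of blood and of the liver's macrophage system were read beside these results. The 16 Kupffer cell and macrophage markers summed to 465, 462 and 601 CPM in wild type and 346, 692 and 312 CPM in knockout. Of them 0 rose and 1 fell, the folate receptor gene Folr2 (−3.46 ± 0.58). Per 1000 counts of that list, a scaling chosen after the data had been examined, the T and NK members had 20.4 to 22.3 counts in wild type and 60.2 to 76.2 in knockout. The B and plasma cell members had 38.3 to 46.5 against 120.4 to 192.1, the neutrophil members 7.46 to 9.93 against 29.1 to 45.4, and the pan-leukocyte members 22.9 to 27.2 against 53.1 to 93.3. On this scale no class overlapped between genotypes. The sum of the Kupffer list was below every wild type in knockout 1 and 4, which raised their values on this scale. In knockout 2 it was above every wild type, which lowered them. Of 8 tested monocyte and dendritic cell markers 2 rose, Clec9a (1.92 ± 0.39) and Itgax (1.56 ± 0.45), both genes of dendritic cells, and the list summed to 12.7 to 17.6 CPM against 18.8 to 36.0 CPM.

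Blood markers moved only in part with the members. Of 7 tested red blood cell markers 1 rose, the globin gene Hba-a2 (1.56 ± 0.37), and 1 fell, Alas2, the enzyme that starts heme synthesis in red cell precursors (−1.05 ± 0.26). Their sum was 302, 340 and 511 CPM in wild type and 850, 364 and 460 CPM in knockout. Knockout 2, with the highest leukocyte markers, and knockout 4, with the lowest of the knockouts, were inside the wild-type range for red cell markers. Knockout 1 was above it. Hba-a2 shares nearly all of its sequence with Hba-a1, so either value is uncertain. Of 4 tested platelet markers 1 rose, Itga2b (1.28 ± 0.31), and the list summed to 3.63 to 5.53 CPM against 6.92 to 12.3 CPM. The part of blood left in the vessels in the leukocyte marker levels was not tested.

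Few genes of lymphoid tissue could be tested. Of 5 tested genes of lymphoid chemokines, stroma and high endothelium 0 rose and 0 fell in edgeR. At an unadjusted p under 0.05, 1 of the 5 was higher: Ltbr, the receptor for the lymphotoxin that Ltb helps to form (0.44 ± 0.16, edgeR adjusted p = 0.0842). Cxcl12, the most abundant, was at −0.19 ± 0.19. Ccl19 and Glycam1 had 0 counts in all libraries, and 1 of the 2 rows named Ccl21a had 0, 0 and 1 counts in wild type and 9, 8 and 2 in knockout. That row was too low for the filter and was called higher in the fit of all genes (4.03 ± 1.27, edgeR adjusted p = 0.0154), a value that rests on 1 wild-type count. Of 4 tested interferon-induced chemokines, which attract cells that carry CXCR3, 1 rose: Cxcl11 (2.32 ± 0.58, edgeR adjusted p = 0.0245), with 0.475, 0.213 and 1.25 CPM in wild type and 4.90, 3.38 and 1.68 CPM in knockout. Cxcl9 and Cxcl10 were at 0.92 ± 0.34 and 0.93 ± 0.39 and were not called with the filter. Without it Cxcl9 was called higher (0.86 ± 0.25, edgeR adjusted p = 0.00781). Of 3 tested lymphocyte progenitor genes none was called (edgeR; 0 with an unadjusted p under 0.05 and higher), with Kit the most abundant at −0.17 ± 0.35.

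**Figure D5:**
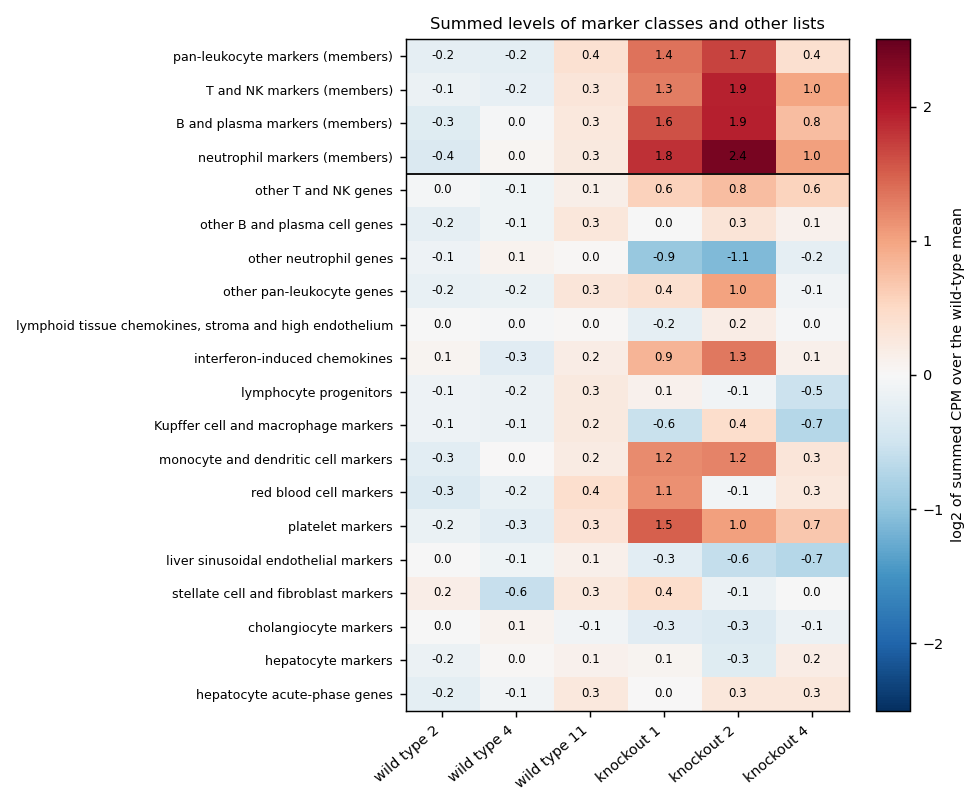
Log2 of the summed CPM of each class of members (above the line) and of each other list (below it), over the mean of the 3 wild types, by library. The 4 member classes are at 0.40 to 2.38 in the knockouts, while the Kupffer cell list is at −0.56, 0.44 and −0.70 in knockout 1, 2 and 4.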

How the data were processed

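The authors deposited raw counts per gene, whole numbers with 1 column per mouse, in 1 table. Per the submitters' processing notes, the genome was mm10. How reads were aligned and counted, on which annotation and whether by strand, was not given in the sources used here. The 42 members and the other lists were chosen with earlier results of these data known. Counts were fitted with edgeR 4.0.16 (R 4.3.3), quasi-likelihood F test, TMM scaling and filterByExpr with a minimum count of 10, and adjusted over all tested genes. No covariate was used. SE is the absolute log2 fold change over the square root of F. Sums and shares carry no model. Alternatives used DESeq2 1.42.0, limma 3.58.1 (voom), other scalings and filters, and left-out libraries. The test was checked on simulated counts. Lengths, overlaps and shared words are from GENCODE M21 (GRCm38). Libraries of 1 genotype differed by 21.0 to 171 in chi-square per degree of freedom, far above sampling noise, and were counted as separate samples. The labels describe separate livers, and p-values measure the spread between them. Intervals and floors cover counting error only. The rule for named genes took Rtn4, every member, and up to 3 called genes of each other list by smallest p, or its most abundant tested gene where none was called. Alb, Zap70, Cd28, Foxp3, Iglc2, Cd74, Txndc5, Sdc1, Ly6g, Trem1, Trem3, Retnlg, Mmp9, Ltf, Mpo, Prtn3, Wfdc21, Ptpn6, Ltbr, Ccl19, Glycam1, Ccl21a, Cxcl9, Cxcl10, Saa1, Saa2, Clec4g and Ptprb were named after their values were seen. Another gene that the rule took is not reported here.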

Additional observations from a re-analysis of the deposited data

How the results depend on the processing

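The count of members that rose was 18 with TMM, RLE size factors, DESeq2, limma-voom, mitochondrial genes removed, or length and GC trends removed, the last an alternative added after the data had been examined. It was 16 with library totals, 14 with at least 1 CPM in 3 libraries, and 24 of 42 without a low-count filter, where the neutrophil count was 5. No setting gave a member that fell. Library totals moved the median of all tested genes to −0.16 and kept all 29 tested members above 0. Leaving out 1 library gave 8 to 26 members that rose, 1 to 9 of the T and NK genes, 0 to 3 of the pan-leukocyte genes, and 300 to 1885 of all tested genes. With the mitochondrial share as covariate, the count was 0 for all members and for each of the 4 classes (the unadjusted count, 10, stands in the report). The cause was not tested. Over all genes the covariate fit called 0 higher, and library totals 690. Ptprc turned its sign with knockout 4 set against the 3 wild types, to −0.0085. The library numbers 2 and 4 occur in both genotypes. Same-numbered libraries deviated from their group means with correlations of −0.06 and 0.07, inside the range of −0.11 to 0.08 for differently numbered ones. Whether the numbers mark pairs cannot be told from these values. With that number as a replicate block 16 members rose, and 771 of all tested genes. Class sums and shares moved by less than the spread between libraries under each alternative run. At these depths a member needed about 10 counts in at least 3 libraries to pass the low-count filter. Members below that were read only in the fit without it.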

Other observations

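Most markers of the liver's own cells were not called higher in knockout. Among all tested genes 8.76% rose and 8.29% fell. Of 10 markers of sinusoidal endothelial cells, which line the liver's capillaries, 0 rose and 5 fell in knockout: Oit3 (−1.45 ± 0.26), Lyve1 (−1.68 ± 0.32), Kdr (−0.92 ± 0.21), Clec4g (−0.81 ± 0.21) and Ptprb (−0.70 ± 0.20). Of 10 stellate cell and fibroblast markers none was called (edgeR; 2 were higher at an unadjusted p under 0.05), and Dcn, the most abundant, was at −0.05 ± 0.25. Of 7 cholangiocyte markers 1 fell, Epcam (−1.30 ± 0.38). Of 10 hepatocyte markers 2 rose, Serpina1c (1.52 ± 0.25) and Trf (1.57 ± 0.28), and 1 fell, Cps1 (−1.52 ± 0.29), while the list's sum had a ratio of 1.002. Of 12 acute-phase genes of hepatocytes 3 rose: Saa3 (1.68 ± 0.43), Orm3 (0.90 ± 0.24) and Orm1 (0.75 ± 0.21). Saa1 and Saa2, the main inducible serum amyloid genes, were at −0.15 ± 0.44 and 0.48 ± 0.47 and were not called.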
